A study of Mus musculus with 6 samples.

Results

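The miR-200 family comprises 5 mature miRNAs, miR-200a-3p, miR-200b-3p, miR-200c-3p, miR-141-3p and miR-429-3p, listed there with the prefix for mouse (mmu-miR-200a-3p, mmu-miR-200b-3p, mmu-miR-200c-3p, mmu-miR-141-3p and mmu-miR-429-3p), which were taken by name from a deposited table of 1482 miRNA rows, and all 5 had a row. Small RNA libraries were made from mouse spinal cord, from 3 mice labelled control and from 3 whose label is SCI, for spinal cord injury. By the labels, the control mice had a laminectomy (removal of the vertebral arch) at T10 with the cord left intact, and the SCI mice had the same laminectomy followed by a moderate contusion from a 10 g weight dropped over 20 mm. All mice weighed 20 to 25 g and were killed on day 2, when a piece of cord some 1 cm long was collected at the T10 level from each. The sources used here do not give strain, sex or age. If the labels hold, no mouse without surgery was included and both groups share the laminectomy, but a check given below did not bear the labels out.

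The family is a textbook marker of epithelial identity. Its members repress the transcription factors Zeb1 and Zeb2, which in turn silence both miR-200 gene clusters, and loss of the family accompanies the passage from an epithelial to a mesenchymal state. The cord parenchyma is built mainly of neurons and glia, while the ependyma lining its central canal is an epithelium-like layer of ciliated cells. A mature miRNA finds its targets mainly through its seed, bases 2 to 8 counted from the 5′ end.

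The mature sequences below, from RefSeq on GRCm38.p6, are shown because the members differ in how far they moved and because their likeness bears on how reads can be told apart. They are written 5′ to 3′ with the seed in capitals.
miR-200b-3p: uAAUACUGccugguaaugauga
miR-200c-3p: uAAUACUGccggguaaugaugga
miR-429-3p: uAAUACUGucugguaaugccgu
miR-200a-3p: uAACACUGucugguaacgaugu
miR-141-3p: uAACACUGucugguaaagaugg
The seeds form 2 groups, 1 of 3 members (miR-200b, miR-200c and miR-429) and 1 of 2 members (miR-200a and miR-141). They differ by a single substitution, U4C from miR-200b-3p to miR-141-3p, counted from the 5′ end. Among the 1679 mature mouse miRNAs of the RefSeq table, 0 others carried either seed. Over the 22 bases they share, miR-200b-3p and miR-200c-3p differ at 2 positions (U11G and A22G), and miR-200a-3p and miR-141-3p also at 2 (C17A and U22G). The sources used here do not say how the authors assigned reads that match more than 1 member.

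The genes lie in 2 clusters that cut across the seed groups, all on the minus strand of GRCm38. On chromosome 4, Mir429 (156053905 to 156053987), Mir200a (156054896 to 156054985) and Mir200b (156055681 to 156055750) span 1846 bp within introns of the protein-coding gene Ttll10, and Mir429 also overlaps an exon of the non-coding gene Gm13648. On chromosome 6, Mir141 (124717914 to 124717985) and Mir200c (124718322 to 124718390) span 477 bp between Phb2 and Ptpn6, in an intron of the non-coding gene Gm15884. Mir141 also overlaps an exon of Gm29008, a transcribed region awaiting experimental evidence in GENCODE M21.

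Library totals ran from 5568491 to 8889977 reads. The labels were checked with miR-21a-5p, widely reported to rise after tissue injury, and miR-223-3p, made by neutrophils. Both were lower in the SCI-labelled libraries, by 3.06 (SE 0.24) and 3.75 (SE 0.29) on the log2 scale, and the SCI-labelled libraries come from columns whose names begin with Normal. These directions and column names do not match the SCI label, and whether the labels of the groups are exchanged was not tested. Every direction given here is therefore that of the labels as deposited. Over the whole table, a total of 614 rows passed the filter on low counts and were tested with edgeR's quasi-likelihood test. Of these, 23.1% were called lower in the SCI-labelled libraries and 16.3% higher, at an adjusted p under 0.05. The balance depended on the scaling, with 120 rows lower and 120 higher by the upper quartile, and 144 lower and 75 higher by the library total. The library labelled control 3 stood apart from the others of its group in skeletal muscle miRNAs, and not in those alone. It had 17052 reads of miR-124-3p, where control 1 and 2 had 4122 and 4007. Of the red cell miRNA miR-451a it had 54440, where they had 166405 and 102495.

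Summed over its 5 members, the family was scarce in these cords, and scarcer in the SCI-labelled ones. The 5 members together gave 352, 461 and 306 reads in control-labelled libraries 1 to 3, but 68, 89 and 81 in SCI-labelled libraries 1 to 3. Per library total this was 53.4, 82.8 and 41.6 unscaled CPM (counts per 1000000 reads of the library) with the control label. With the SCI label it was 8.61, 12.5 and 9.11 unscaled CPM. The 95% exact binomial intervals, which cover counting error only, reached down to 37.0 CPM in the lowest control-labelled library and up to 15.4 CPM in the highest SCI-labelled one. The group means were 59.2 ± 21.2 and 10.1 ± 2.14 unscaled CPM (SD, n = 3 each). In whole tissue, fewer cells that make these miRNAs and less of them per cell cannot be told apart.

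**Figure D1:**
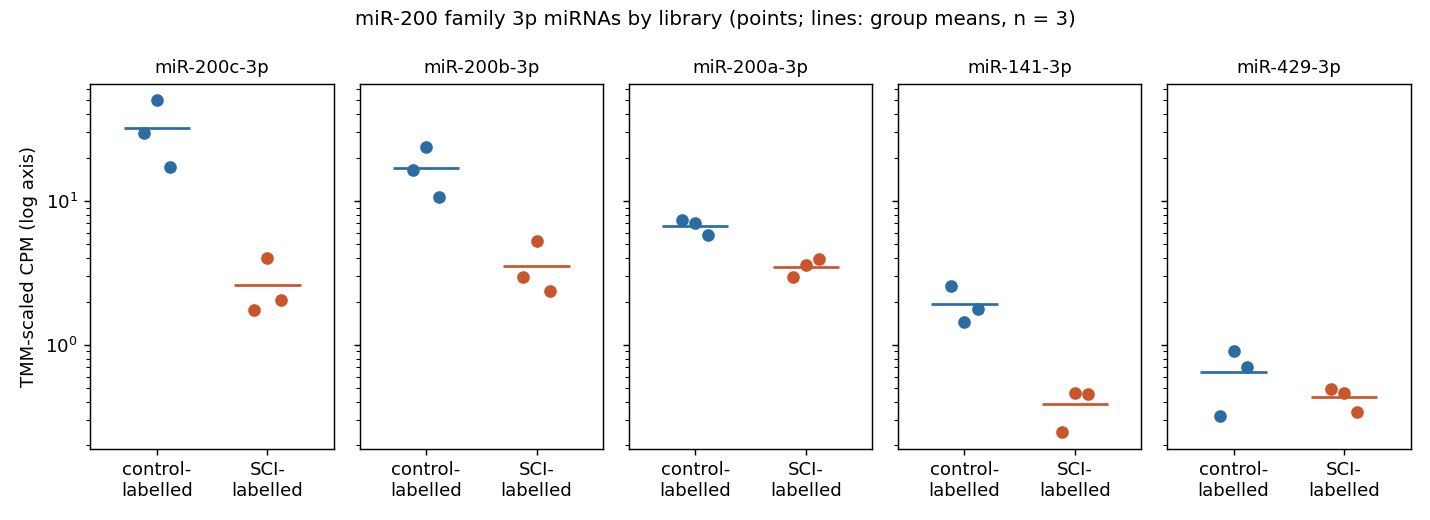
TMM-scaled CPM on a log axis for each of the 5 members in the 3 control-labelled (blue) and 3 SCI-labelled (orange) libraries; points are libraries and lines are group means. The groups are apart for miR-200c-3p, miR-200b-3p, miR-200a-3p and miR-141-3p and overlap for miR-429-3p.

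miR-200c-3p, the member with the most reads in the control-labelled libraries, showed the widest gap in the family. It had 185, 277 and 146 reads in control-labelled libraries 1 to 3, but only 14, 26 and 18 with the SCI label. Even the lowest control-labelled library thus held several times the reads of any SCI-labelled one. Given as CPM scaled with TMM factors, as all CPM values below are, its level was 32.3 ± 16.6 against 2.60 ± 1.25 (SD, n = 3 each). It was 12.5-fold lower in the SCI-labelled libraries (log2 fold change -3.65, SE 0.48; edgeR quasi-likelihood adjusted p = 0.000789).

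miR-200b-3p carries the same seed but is made from the chromosome 4 cluster. Its reads numbered 103, 132 and 90 with the control label, but 24, 34 and 21 with the SCI label. The groups did not overlap, and the library labelled control 2 was the highest for this member, as it was for miR-200c-3p. The level was 17.0 ± 6.66 CPM against 3.54 ± 1.53 CPM (SD, n = 3 each), 4.83-fold lower in the SCI-labelled libraries (log2 fold change -2.27, SE 0.41; edgeR adjusted p = 0.00296).

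miR-429-3p, the remaining member with this seed, had 2, 5 and 6 reads in control-labelled libraries 1 to 3, beside 4, 3 and 3 with the SCI label. The groups overlapped, and the row did not pass the filter on low counts. Summed over each group it had 13 and 10 reads, a ratio of control-labelled to SCI-labelled of 1.5 after scaling, with a 95% exact Poisson interval from 0.607 to 3.82 that covers counting error only. The like interval of miR-200b-3p, its neighbour in the same cluster, ran from 3.70 to 6.14. These intervals overlap and leave out the spread between mice, so the neighbours were not shown to differ. Differences within the interval of miR-429-3p were not detectable at this depth.

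miR-200a-3p carries the other seed and lies between Mir429 and Mir200b. It had 46, 39 and 49 reads with the control label, beside 24, 23 and 35 with the SCI label. The 3 control-labelled values lay close together and above all SCI-labelled ones once scaled, at 7.37, 7.06 and 5.77 CPM against 2.97, 3.57 and 3.97 CPM. It was 1.91-fold lower in the SCI-labelled libraries (log2 fold change -0.93, SE 0.27; edgeR adjusted p = 0.0240). This call was lost without the library labelled control 1 (edgeR adjusted p = 0.0795) or without SCI 1 (0.111), 2 (0.0980) or 3 (0.0689). It was also lost with upper quartile scaling (0.0532) and with no filter (0.0914).

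miR-141-3p, which shares the seed of miR-200a-3p and the cluster of miR-200c-3p, had 16, 8 and 15 reads with the control label, but 2, 3 and 4 with the SCI label. Its level was 1.93 ± 0.574 CPM against 0.389 ± 0.122 CPM (SD, n = 3 each). It was 4.82-fold lower in the SCI-labelled libraries (log2 fold change -2.27, SE 0.48; edgeR adjusted p = 0.00665). This row passed the filter only through the control-labelled libraries, so it could hardly have been tested without being lower in the SCI-labelled ones. For that reason the 4 tested members that were called lower are listed here as values, and nothing is read from their number, or from the lack of overlap between their groups, against the 23.1% of all tested rows that were called lower and the 28.0% in which every SCI-labelled library lay below every control-labelled one.

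**Figure D2:**
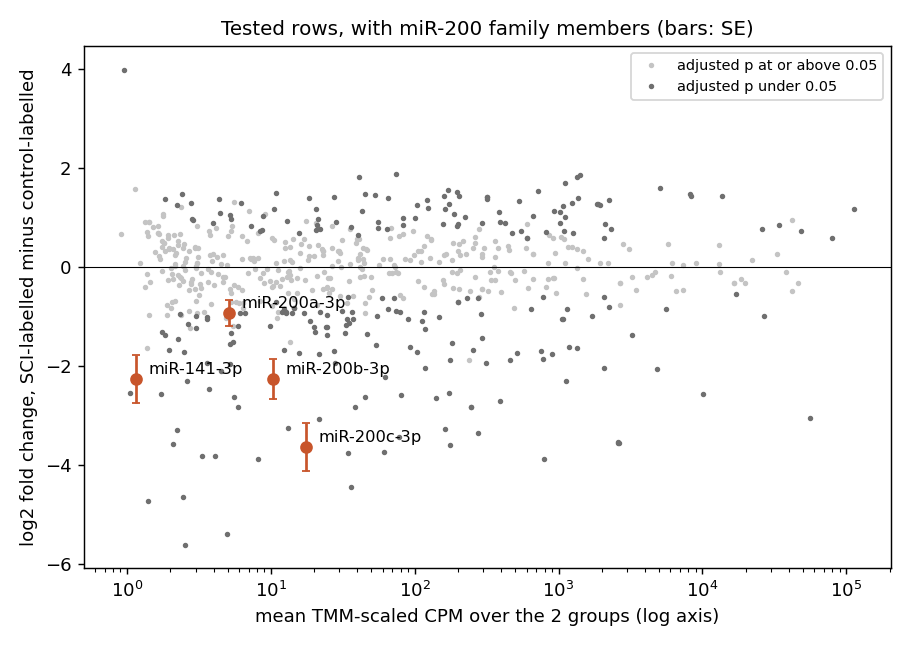
Log2 fold change (SCI-labelled minus control-labelled) against the mean TMM-scaled CPM of the 2 groups (log axis) for the 614 tested rows, dark grey where the edgeR adjusted p was under 0.05. The 4 tested family members (orange, bars are SE) lie at the low end of the range of levels, from -0.93 for miR-200a-3p to -3.65 for miR-200c-3p.

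The order of levels within the family differed between the groups. All members are 22 or 23 bases long, so CPM needs no length term, but adapter ligation depends on a miRNA's end sequences and its efficiency was not measured here. In each control-labelled library the order of reads ran from miR-200c-3p through miR-200b-3p, miR-200a-3p and miR-141-3p to miR-429-3p. The mean levels of miR-200c-3p and miR-200b-3p in that group lay within 1 SD of miR-200c-3p of each other, although miR-200c-3p was the higher in 3 of 3 libraries. In the SCI-labelled libraries miR-200b-3p (3.54 ± 1.53 CPM), miR-200a-3p (3.50 ± 0.499 CPM) and miR-200c-3p (2.60 ± 1.25 CPM; SD, n = 3 each) did not differ beyond their spread. Nor did miR-429-3p (0.434 ± 0.0825 CPM) and miR-141-3p (0.389 ± 0.122 CPM; SD, n = 3 each).

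The make-up of the family shifted accordingly. miR-200c-3p gave 53.5% ± 6.24 of the family's reads in the control-labelled libraries and 24.0% ± 4.58 in the SCI-labelled ones (SD, n = 3 each). miR-200a-3p gave 12.5% ± 3.81 and 34.8% ± 8.69, and miR-200b-3p 29.1% ± 0.413 and 33.1% ± 6.42 (SD, n = 3 each). The shares of miR-200c-3p and miR-200a-3p did not overlap between the groups, and those of miR-200b-3p did.

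**Figure D3:**
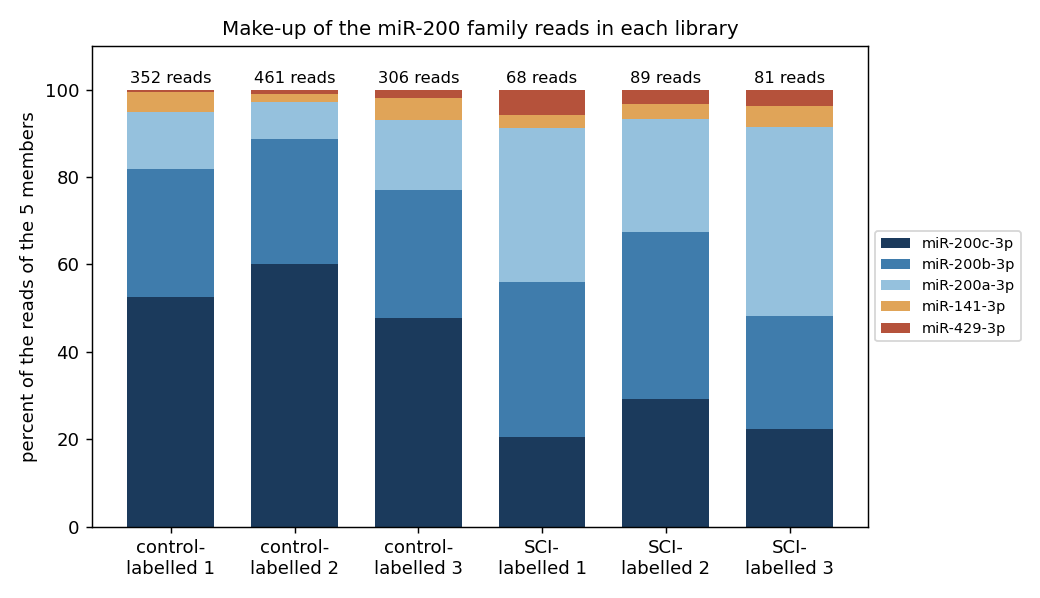
Percent of the reads of the 5 members that each gave, by library, with the number of family reads above each bar. miR-200c-3p gave between 47.7% and 60.1% in the control-labelled libraries and between 20.6% and 29.2% in the SCI-labelled ones, where miR-200a-3p took a larger share.

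Because a ratio within a library does not depend on scaling, the members were also set against each other by ratios. Of these, 2 were tested with exact two-sided permutation tests of 3 libraries against 3, whose smallest possible p is 0.1. Reads of the chromosome 6 cluster over those of the chromosome 4 cluster gave ratios of 1.33, 1.62 and 1.11 with the control label, but 0.308, 0.483 and 0.373 with the SCI label. The chromosome 6 cluster gave the most reads in every control-labelled library and the fewest in every SCI-labelled one, a 3.51-fold shift of the ratio (exact permutation p = 0.1, the smallest possible, and 0.1 after Benjamini-Hochberg adjustment over the 2 ratios). Reads of the miR-200b, miR-200c and miR-429 seed group over those of the miR-200a and miR-141 seed group gave 4.68, 8.81 and 3.78 with the control label, but 1.62, 2.42 and 1.08 with the SCI label. These values did not overlap either, and the ratio shifted 3.33-fold (exact permutation p = 0.1, adjusted 0.1). The 2 ratios are not independent, since miR-200c-3p is in both numerators and miR-200a-3p in both denominators. They do not tell a shift by seed from a shift by cluster.

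A further 2 ratios compare cluster mates. They were chosen after their values were seen and are given as descriptions, with no test. miR-200b-3p over miR-200a-3p was 2.24, 3.38 and 1.84 with the control label, but 1.0, 1.48 and 0.600 with the SCI label. miR-200c-3p over miR-141-3p was 11.6, 34.6 and 9.73, and then 7.0, 8.67 and 4.50. In neither ratio did the groups overlap. The mean log2 difference of the latter ratio was -1.28, and -0.71 without the library labelled control 2, and its SCI-labelled values rest on 2 to 4 reads of miR-141-3p.

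The opposite (5p) arms of the hairpins, usually the less stable strand, were near the limit of detection. Of the 5 arms, 3 had a row; miR-200c-5p and miR-429-5p were not analysed here. miR-200a-5p had 19, 10 and 7 reads with the control label, beside 3, 3 and 5 with the SCI label, with no overlap. It did not pass the filter. Fitted with no filter, edgeR gave a log2 fold change of -1.88 and an adjusted p of 0.0143. With the filter, the row was kept only when certain single libraries were left out. The edgeR adjusted p was then 0.107, 0.105 and 0.0847 without SCI 1, 2 or 3, and 0.00246 without control 3. miR-141-5p had 6, 0 and 2 reads against 0, 0 and 0, so most of its reads came from the library labelled control 1. With its 0 reads replaced by an assumed floor of 3 over its libraries, the SCI-labelled group would be 3.07-fold lower. That value is a bound and not a measured fold, with the control-labelled reads taken as exact. The 95% exact Poisson interval of the control-labelled to SCI-labelled ratio, which covers counting error only, reached down to 1.97. miR-200b-5p had 1 read in all 6 libraries together.

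Other miRNAs listed as epithelial did not share 1 direction. Those not called lower were miR-375-3p and the members of the miR-183 cluster, described below as endocrine and sensory. Of the 7 on the epithelial list, all tested, 3 were lower in the SCI-labelled libraries, 1 was higher and 3 did not pass, where 23.1% of all tested rows were lower and 16.3% higher. In 14 of the 17 alternative analyses 2 were lower, miR-205-5p no longer passing. miR-31-5p, abundant in squamous epithelium and skin, was at 70.0, 76.8 and 55.5 CPM with the control label, but at 7.43, 9.30 and 11.4 CPM with the SCI label. Its log2 fold change was -2.84 (SE 0.25; edgeR adjusted p = 0.000128). miR-203-3p, a keratinocyte miRNA that promotes differentiation, was at 390 ± 67.5 CPM against 122 ± 23.7 CPM (SD, n = 3 each; log2 fold change -1.68, edgeR adjusted p = 0.00100). The groups did not overlap for either of them.

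miR-205-5p, which like the miR-200 family targets Zeb1 and Zeb2, was at 2.72, 3.26 and 3.30 CPM and then at 1.86, 1.71 and 1.25 CPM. Its log2 fold change of -0.95 passed edgeR's test narrowly (adjusted p = 0.0462) and failed it when any 1 library was left out (0.0730 to 0.184), with DESeq2 (0.115) and with RLE scaling (0.0509). miR-96-5p of the sensory miR-183 cluster was higher, at 292 ± 76.2 CPM against 103 ± 7.63 CPM in the control-labelled libraries (SD, n = 3 each; log2 fold change 1.5, edgeR adjusted p = 0.00157). Its cluster mates miR-182-5p and miR-183-5p, which had the highest levels on the list, had log2 fold changes of 0.39 and 0.28 and did not pass, nor did miR-375-3p (0.28), a miRNA of endocrine cells.

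The list for ciliated and ependymal cells held 8 miRNAs of the miR-34 and miR-449 family, which is needed for building motile cilia. Of these, 7 had a row and 6 were tested. Among the tested rows 1 was lower, 1 was higher and 4 did not pass, where 23.1% of all tested rows were lower and 16.3% higher. Nothing is read from these counts. miR-34c-5p, among the most abundant of the list, was at 742, 767 and 1247 CPM with the control label, beside 892, 776 and 666 CPM with the SCI label. The groups overlapped, and its log2 fold change of -0.24 turned to 0.09 without the library labelled control 3. miR-34c-3p, the other arm of that hairpin, was at 28.8, 27.2 and 27.1 CPM against 10.0, 14.1 and 11.8 CPM and was lower (log2 fold change -1.21, edgeR adjusted p = 0.00289).

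miR-34a-5p, a p53 target present in many cell types, was higher, at 1967 ± 269 CPM against 749 ± 406 CPM (SD, n = 3 each; log2 fold change 1.39, edgeR adjusted p = 0.0157). That call was lost without the library labelled SCI 1 (edgeR adjusted p = 0.0529) or 3 (0.0611). miR-449a-5p, the member most restricted to multiciliated cells, had levels of 3.06 ± 1.33 CPM against 2.53 ± 0.537 CPM (SD, n = 3 each), with a log2 fold change of -0.31 that did not pass. It turned to 0.17 without the library labelled control 3. miR-34b-3p (-0.61) did not pass either, though it did in 6 of the alternative analyses, and miR-34b-5p stood at 0.21.

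The tested rows of the choroid plexus list, both from the miR-204 hairpin, ran opposite to the called members of the miR-200 family. Which cells of the cord made them was not tested. Of 3 with a row, 2 were tested and both were higher, where 16.3% of all tested rows were higher. Being the 5p and 3p arms of 1 hairpin, they do not count as separate genes. miR-204-5p, also made by the retinal pigment epithelium, was at 833, 767 and 547 CPM with the control label, but at 1802, 1661 and 1787 CPM with the SCI label. Its log2 fold change was 1.29 (SE 0.21; edgeR adjusted p = 0.00167), and that of miR-204-3p was 1.82 (SE 0.31; edgeR adjusted p = 0.00219). These lists thus held rows called in either direction. These data alone do not show which cells the family's reads came from.

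**Figure D4:**
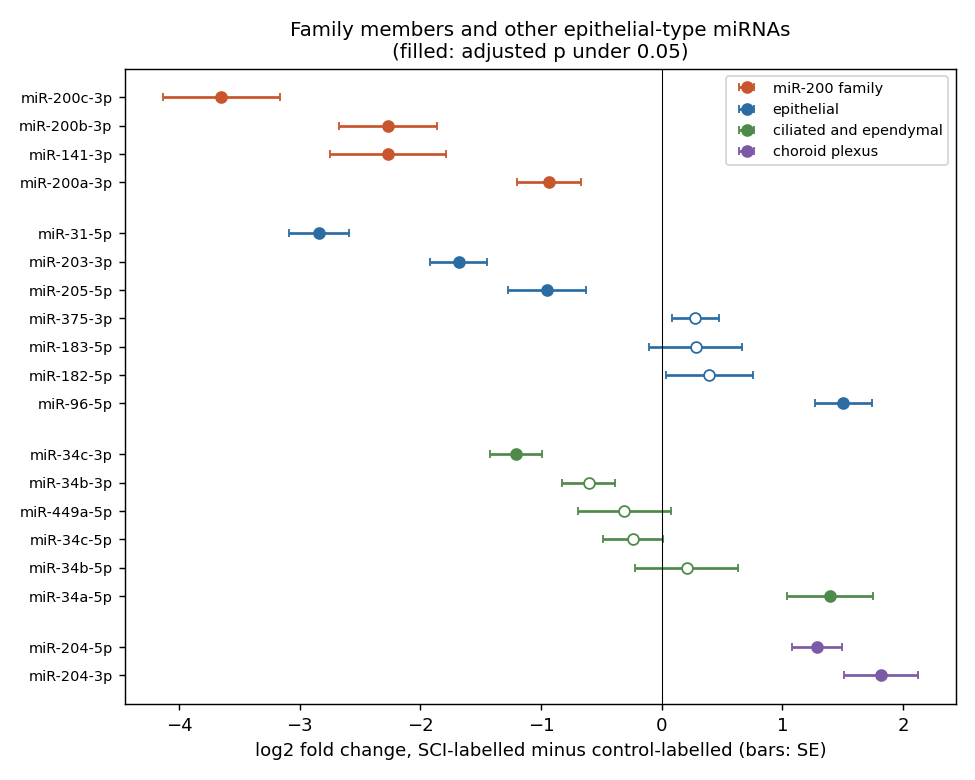
Log2 fold change (SCI-labelled minus control-labelled; bars are SE) of the tested miR-200 family members and the tested members of the epithelial, ciliated and ependymal, and choroid plexus lists; filled points had an edgeR adjusted p under 0.05. The family lies to the left of 0, the other epithelial and ciliated lists lie on both sides, and both choroid plexus rows lie to the right.

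miRNAs of several other cell types differed between the same libraries, where 23.1% of all tested rows were lower and 16.3% higher. These lists were chosen with earlier results of these data known, so nothing is read from the counts called in them. The 5 leukocyte miRNAs were all lower in the SCI-labelled libraries, with a summed level of 1778 to 2983 CPM in the control-labelled and 328 to 450 CPM in the SCI-labelled group. So were the 4 red cell miRNAs (9426 to 32718 CPM against 2481 to 5231 CPM) and the 3 fibroblast miRNAs (1830 to 3299 CPM against 555 to 1055 CPM). Of the 4 neuron miRNAs, 3 were higher and 1 did not pass, miR-124-3p, whose log2 fold change was -0.52. Their sums were 64861 to 93317 CPM against 124616 to 137011 CPM. Most of that was miR-9-5p, at 64270 ± 13997 CPM against 96125 ± 5733 CPM (SD, n = 3 each). In these lists the call of miR-150-5p (lower) was lost without control 1 or any SCI-labelled library, and that of miR-9-5p (higher) without any library but control 3, with edgeR adjusted p-values up to 0.111 and 0.149. Of the 3 oligodendrocyte, 2 endothelial and 3 skeletal muscle miRNAs, edgeR, DESeq2 and limma voom each called 0, and at an unadjusted edgeR p under 0.05 there were also 0. Their sums were 8049 to 10923 CPM against 9582 to 10498 CPM for oligodendrocytes and 12211 to 28514 CPM against 16412 to 18789 CPM for endothelium. The sums for skeletal muscle were 8273 to 37664 CPM against 9779 to 20394 CPM, with the library labelled control 3 the highest of all 6. None of these markers was at 0 in any library, and the part of these cell types in the family's difference was not tested.

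The library labelled control 3 had the fewest family reads of its group. Without it the log2 fold changes were -3.92 for miR-200c-3p, -2.49 for miR-200b-3p, -2.30 for miR-141-3p and -1.0 for miR-200a-3p, each as large as with all libraries.

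Over the 6 libraries, the members followed each other to differing degrees. Pearson's r of log2 CPM between pairs of the 4 tested members ran from 0.896 (miR-200b-3p and miR-141-3p) to 0.990 (miR-200b-3p and miR-200c-3p), and between these and miR-429-3p from 0.347 to 0.661. All points share their libraries, scaling and the group difference, and the values are descriptions.

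Among 269 other named miRNAs with a mean of at least 50 CPM, 48 (17.8%) had an r over 0.9 with the summed family level over the 6 libraries. The 5 most alike were miR-140-3p (0.997), miR-92a-3p (0.990), miR-26b-5p (0.989), miR-222-3p (0.985) and miR-28a-3p (0.982). miR-140-3p, best known from cartilage, was at 8050, 9930 and 5573 CPM with the control label, but at 1580, 2237 and 1846 CPM with the SCI label. Its highest and lowest libraries within each group were the same ones as for the summed family. With each group's mean taken off, which leaves only the spread between libraries of a group, the 5 most alike were miR-146a-5p (0.987), miR-140-3p (0.982), miR-320-3p (0.979), miR-30c-2-3p (0.976) and miR-1839-5p (0.975). miR-30c-2-3p is on this list with a log2 fold change between the groups of -0.07.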

How the data were processed

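The authors deposited whole-number read counts per miRNA, without normalization, and TPM columns, per the file headers. The deposited TPM equals CPM from the column total, with no length term. Bowtie and mm10 are named in the submitters' processing notes; the sources used here do not give the version, miRBase release or handling of reads matching several miRNAs. Each column was tied to its sample by the description GEO holds.

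The analysis ran in R 4.3.3. edgeR 4.0.16 was used with filterByExpr (minimum count 10), TMM scaling, robust quasi-likelihood test with group as the only term, Benjamini-Hochberg adjustment over 614 rows, threshold 0.05. SE is the log2 fold change divided by the square root of F. DESeq2 1.42.0 and limma 3.58.1 were alternatives. Likeness used log2 CPM with 2 counts added. Steps were tested on simulated data. Replicate libraries all differed beyond sampling noise, and each is taken as 1 mouse. Named miRNAs are the 5 members, their opposite arms, and the epithelial, ciliated and choroid plexus lists (those called, or the 2 most abundant, with values). Also named are 2 miRNAs that check the labels and the 5 most alike by each measure. The miRNAs miR-375-3p, miR-449a-5p, miR-34b-3p, miR-34b-5p, miR-150-5p, miR-9-5p, miR-124-3p and miR-451a were added after their values were seen. The lists for leukocytes, red cells, fibroblasts, neurons, oligodendrocytes, endothelium and skeletal muscle are given as counts and sums. Members and lists were chosen with earlier results of these data known.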

Additional observations from a re-analysis of the deposited data

How the results depend on the processing

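miR-200c-3p and miR-200b-3p kept their direction and their call in each of the 17 alternative analyses, with log2 fold changes of -4.03 to -3.19 and -2.61 to -1.96 when 1 library at a time was left out. miR-141-3p kept its call as well (-2.43 to -1.96), but where a filter on low counts was used, which it passes only through the control-labelled libraries, its direction was fixed and this is no sign of stability; with no filter it stood at -2.23 (edgeR adjusted p = 0.00323). The weaker miR-200a-3p lost its call with upper quartile scaling (-0.82), with no filter (-0.89) and with the replicate number as a block (-0.93, edgeR adjusted p = 0.0649), and ranged from -1.01 to -0.80 over single left-out libraries. The block changed no other member's call. Libraries of equal replicate number had correlations of -0.26, 0.19 and -0.16 after group means were taken off, and not every library correlated best with its own number. Taking off the means of 3 libraries ties these values to each other, so they do not show whether the mice were paired. By the library total 144 rows were lower and 75 higher, and by the upper quartile 120 and 120. The block gave 112 lower and 78 higher calls over the table. Over single left-out libraries these counts ran from 87 to 179 lower and from 54 to 152 higher, and those of the ciliated list from 1 to 2 lower and from 0 to 1 higher. That list had 2 lower with the library total, with limma voom, and with each pseudocount (0.1, 1 or 10) for limma on log2 TPM. Upper quartile scaling moved the median of all rows from -0.07 to 0.04. Over single left-out libraries the sign turned for miR-183-5p (-0.023 to 0.78), miR-34b-5p (-0.035 to 0.86), miR-34c-5p (-0.37 to 0.087), miR-449a-5p (-0.48 to 0.17) and miR-30c-2-3p (-0.15 to 0.10, and 0.034 with upper quartile scaling), none of them called; the cause was not tested. With 2 to 6 reads a library, depth limits what can be said of miR-429-3p, and the 2 to 4 reads of miR-141-3p in SCI-labelled libraries limit its fold.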
